A study of Mus musculus with 12 samples.

Results

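The genes described here are 44 genes of DNA replication and S phase, the stage of the cell cycle in which the genome is copied. They were taken by name, with no value entering the rule, but the list was chosen with earlier results of these data known. All 44 were found among the 52015 genes used. The study asked how hypertonicity and the transcription factor NFAT5, the main activator of osmoprotective genes, shape gene expression in mpkCCD cells. These cells are a mouse line derived from the principal cells of the renal cortical collecting duct. RNA was sequenced from 12 libraries in 4 groups. The control cells had been transduced with a scramble (Scr) guide RNA that targets no gene and were kept for 5 days in isotonic medium of 300 mosmol/kg (Scr_300, 2 libraries) or in hypertonic medium of 600 mosmol/kg (Scr_600, 2 libraries). Cells with a CRISPR/Cas9 knockout of Nfat5 were kept in the same media for the same time (Nfat5-KO_300 and Nfat5-KO_600, 4 libraries each). The hypertonic medium held an added 100 mM NaCl and 100 mM urea. The knockout libraries came from 2 clones, N1 and N3, with 2 libraries of each clone in each medium, so that differences between clones and the loss of NFAT5 cannot be told apart from the group values.

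Replication starts at origins that are licensed in G1, when the origin recognition complex, Cdc6 and Cdt1 load the MCM helicase onto DNA. At the start of S phase, Cdc45 and the GINS complex join MCM to form the active helicase, DNA polymerase alpha with primase lays down primers, and polymerases delta and epsilon extend them with the sliding clamp PCNA. Most of these genes are transcribed in waves at the G1/S boundary under E2F factors, so that in an unsynchronized culture their mRNA also depends on how many cells are in or near S phase. In bulk RNA, fewer cells in S phase and less mRNA in each such cell cannot be told apart.

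The authors deposited 1 FPKM value (fragments per kilobase of transcript, scaled to the mapped fragments) per gene and group, and no value per library. FPKM is corrected for length, so levels can be set side by side between genes. With 1 value per group, no difference below has a replicate check, and no SD, p-value or call was calculated. The depth is unknown. FPKM of the genes used summed to 253756 in Scr_300, 231932 in Scr_600, 251080 in Nfat5-KO_300 and 212247 in Nfat5-KO_600. Nfat5 itself was listed at 5.61, 7.93, 3.47 and 6.88 FPKM in the same order, so its transcript was still counted in the knockout cells. Of 11 collecting duct markers, 8 reached 0.5 FPKM in a group, among them the epithelial genes Epcam, Cdh1, Krt8 and Krt18, and the summed level of the 11 was between 998 and 1501 FPKM. Within that list Gata3 (3.41, 4.33, 11.8 and 30.0 FPKM in the order above), Hsd11b2 (0.383, 0.655, 1.95 and 6.18 FPKM) and Scnn1a (2.95, 1.31, 3.56 and 7.03 FPKM) were higher in Nfat5-KO_600 than in the other groups, while Epcam and Krt8 were lowest there. Whether this shift of markers plays a part in the differences between genotypes given below was not tested. Aqp2, the water channel that defines principal cells, did not reach 0.5 FPKM in any group. The markers of intercalated cells, the thick limb, endothelium and fibroblasts did not reach that level either, and the intercalated cell gene Foxi1 and the T cell gene Cd3e were at 0 in every group. The summed levels of the proximal tubule list (0.0518 to 1.24 FPKM) and of the immune cell list (1.44 to 2.62 FPKM) were low, with Lrp2 at 1.07 FPKM in Nfat5-KO_600 and Cd68 as the markers of those lists that reached 0.5 FPKM.

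The promoters of several members carried motifs of the E2F factors, to which the member E2f1 belongs. RefSeq promoter windows of GRCm38.p6, from 250 bases before to 50 bases after the start of transcription, were found for 35 of the 44 genes. They were searched on both strands for TTTCCCGC, TTTCGCGC, TTTGCCGC and TTTGGCGC. A match was present in 13 of 35 members (37.1%) and in 704 of 27025 genes (2.60%). The 13 were Mcm3, Mcm5, Mcm6, Mcm7, Orc1, Cdc6, Cdt1, Gins3, Rfc3, Pola1, Pold1, Lig1 and Uhrf1. Such a match is a description of the letters and not of binding. The 180 bases before the start site are shown for Mcm5 (chr8:75109329-75109508, plus strand) and Mcm6 (chr1:128359706-128359885, minus strand), because these helicase genes held more than 1 match and no annotated exon. Capitals mark the matches, and adjoining matches on opposite strands overlap.
Mcm5: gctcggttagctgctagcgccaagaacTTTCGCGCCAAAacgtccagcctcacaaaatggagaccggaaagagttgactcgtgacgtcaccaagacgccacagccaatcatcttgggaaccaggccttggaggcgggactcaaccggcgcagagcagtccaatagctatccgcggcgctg
Mcm6: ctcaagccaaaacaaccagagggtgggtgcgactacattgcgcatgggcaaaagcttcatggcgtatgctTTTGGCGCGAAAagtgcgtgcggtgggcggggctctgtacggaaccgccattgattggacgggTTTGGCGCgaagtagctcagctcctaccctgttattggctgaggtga

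For other helicase and licensing genes and for Uhrf1, a stretch of 30 bases around a match is shown, with the match in capitals, to let the sites be compared. The Mcm7 site begins 165 bases before the start (chr5:138172030-138172059, minus strand), and the Cdc6 site 138 bases before it (chr11:98908002-98908031, plus strand). The Orc1 site begins 27 bases before the start (chr4:108579416-108579445, plus strand), and the Uhrf1 site 185 bases before it (chr17:56304117-56304146, plus strand).
Mcm7: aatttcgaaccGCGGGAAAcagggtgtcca
Cdc6: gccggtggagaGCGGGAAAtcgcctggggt
Orc1: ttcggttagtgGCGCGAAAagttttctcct
Uhrf1: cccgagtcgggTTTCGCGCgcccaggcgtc

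Mcm7 and Cdc6 shared the same 8 letters, GCGGGAAA, while Orc1 carried GCGCGAAA, the reverse complement of the match in Uhrf1. The short element CCAAT was present on either strand in 22 of 35 member windows (62.9%) and in 41.1% of all genes. The core TGGAAA, which is contained in the binding sites of NFAT factors, was present in 7 of 35 (20%, against 23.9% of all genes). Those 7 were Mcm3, Cdc45, Pcna, Lig1, Fen1, Rrm1 and Tk1.

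All 44 genes were expressed in every group, from 3.50 FPKM for Gins2 in Nfat5-KO_600 to 192 FPKM for Pcna in Scr_300. Their FPKM summed to 1668 in Scr_300, 1404 in Scr_600, 1568 in Nfat5-KO_300 and 1299 in Nfat5-KO_600, which was 0.657%, 0.606%, 0.625% and 0.612% of all FPKM. The summed level and its share of all FPKM were thus lower in hypertonic than in isotonic medium in both genotypes. As a share of all FPKM the order of the genotypes in hypertonic medium was reversed, with 0.606% in Scr_600 and 0.612% in Nfat5-KO_600.

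**Figure D1:**
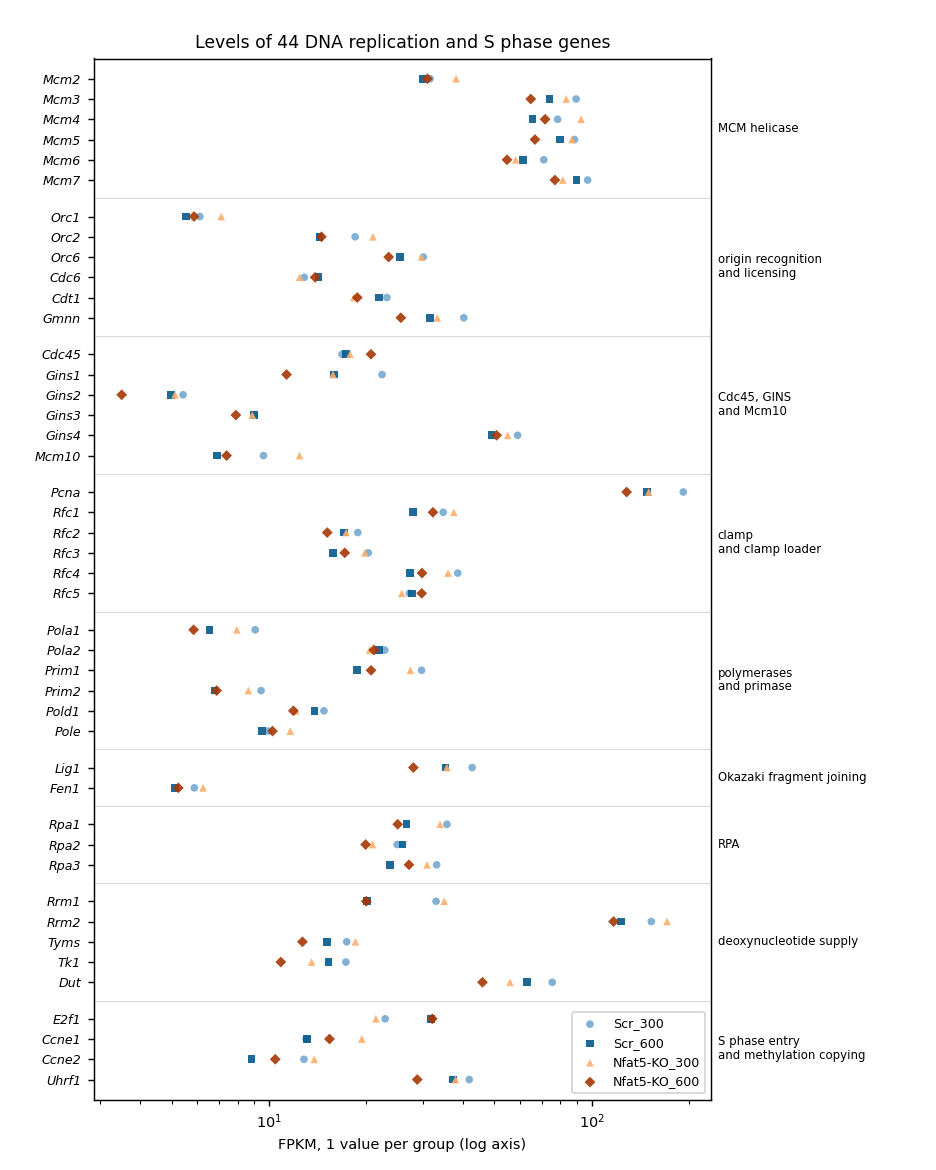
FPKM of the 44 genes in the 4 groups, 1 point per gene and group on a log axis, ordered by role. Pcna and Rrm2 lay above 100 FPKM in every group, Gins2 was the lowest member in every group, and the spread between genes was far wider than that between the groups of a gene.

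The highest level among the 4 groups was in Scr_300 for 26 of the 44 genes and in Nfat5-KO_300 for 13. The lowest level was in Nfat5-KO_600 for 22 genes and in Scr_600 for 15. These counts were taken on the values as deposited and were not set beside all genes. They depend on the scale, and the FPKM sum of all genes used was highest in Scr_300 and lowest in Nfat5-KO_600. In Scr_300 the leading genes were Pcna (192 FPKM), Rrm2 (153 FPKM), the small subunit of ribonucleotide reductase, and the helicase subunit Mcm7 (97.2 FPKM). The 6 MCM genes, whose proteins form a ring with 1 copy of each, lay between 31.6 FPKM (Mcm2) and 97.2 FPKM (Mcm7) in that group. Mcm2 was the lowest MCM gene in all 4 groups.

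In Scr cells, hypertonicity went with lower levels of most members, each by little. The log2 ratio of FPKM + 0.1 between Scr_600 and Scr_300 was below 0 for 38 of 44 members, against a background of 54.6% of the 12929 genes tested, and for 30 of 44 (40.5% of all genes) when the values were rescaled to equal sums. The median ratio of the members was -0.22 and that of all genes was -0.041. This background reaches down to 0.5 FPKM, below the level of every member. When it was limited to the 7147 genes whose 4 groups averaged 5 FPKM or more, its median was -0.057, with 57.5% below 0. The shares at a fold limit given below were not limited in this way. At least 1.5-fold lower were 2 members, Prim1 and Rrm1 (background 9.01%), and 0 were at least 1.5-fold higher (10.4%). With values rescaled the counts were 0 and 1 (6.49% and 14.4% of all genes). A change of at least 1.2-fold, a limit set after the values were seen, was present in 19 members to the lower side (26.7% of all genes) and in 1 to the higher side, E2f1 (22.9%). With values rescaled it was present in 10 and in 2, E2f1 and Cdc6 (17.9% and 32.7% of all genes).

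In Nfat5-KO cells the picture was alike. The log2 ratio between Nfat5-KO_600 and Nfat5-KO_300 was below 0 for 38 of 44 members (52.9% of the 12982 genes tested), and for 26 of 44 (34.6% of all genes) with the values rescaled. The median of the members was -0.29 and that of all genes was -0.040. In the 7147 genes that averaged 5 FPKM or more, the median was -0.11 and 60.4% were below 0. The members thus stood apart less from genes of a more similar level. At least 1.5-fold lower were Mcm10 and Rrm1 (background 13.8%), and 0 members were at least 1.5-fold higher (14.1%). With values rescaled the counts were 0 and 1 (7.12% and 24.8% of all genes). At the limit of 1.2-fold the counts were 25 to the lower side (32.6% of all genes) and 1 to the higher side, again E2f1 (28.9%). With values rescaled the counts were equal, with 6 members (13.6%) to the lower and 6 (13.6%) to the higher side. Of all genes, 18.2% and 45.5% were then on these sides, so the share of the members on the higher side stayed below that of all genes. The members to the lower side were Orc2, Gins2, Mcm10, Rrm1, Rrm2 and Tyms, and those to the higher side Cdc6, Cdt1, Cdc45, Rfc5, Pola2 and E2f1.

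Since the sums of FPKM differed between groups, the choice of scale moved all ratios of a comparison by nearly the same amount. Median-of-ratios factors, a scale set by the median gene, were near 1. They were 1.000 in Scr_300, 0.990 in Scr_600, 1.004 in Nfat5-KO_300 and 1.026 in Nfat5-KO_600. Rescaling to equal sums instead moved the median of all genes under hypertonicity to 0.088 (Scr) and 0.20 (Nfat5-KO). Rescaling every group to the same sum added 0.13 to the ratios of Scr_600 against Scr_300, 0.24 to those of Nfat5-KO_600 against Nfat5-KO_300, 0.015 to those of Nfat5-KO_300 against Scr_300 and 0.13 to those of Nfat5-KO_600 against Scr_600. It turned the sign for Mcm2, Mcm7, Cdt1, Gins2, Gins3, Pola2, Pold1 and Pole in Scr cells under hypertonicity. In Nfat5-KO cells it turned the sign for Mcm6, Mcm7, Gins3, Gins4, Pcna, Rfc1, Rfc2, Rfc3, Pold1, Pole, Rpa2 and Rpa3. A count against the median of all genes does not depend on that scale. By this count, 37 of 44 members lay below the median of all genes in Scr cells and 37 of 44 in Nfat5-KO cells, and the counts by role below are of this kind.

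**Figure D2:**
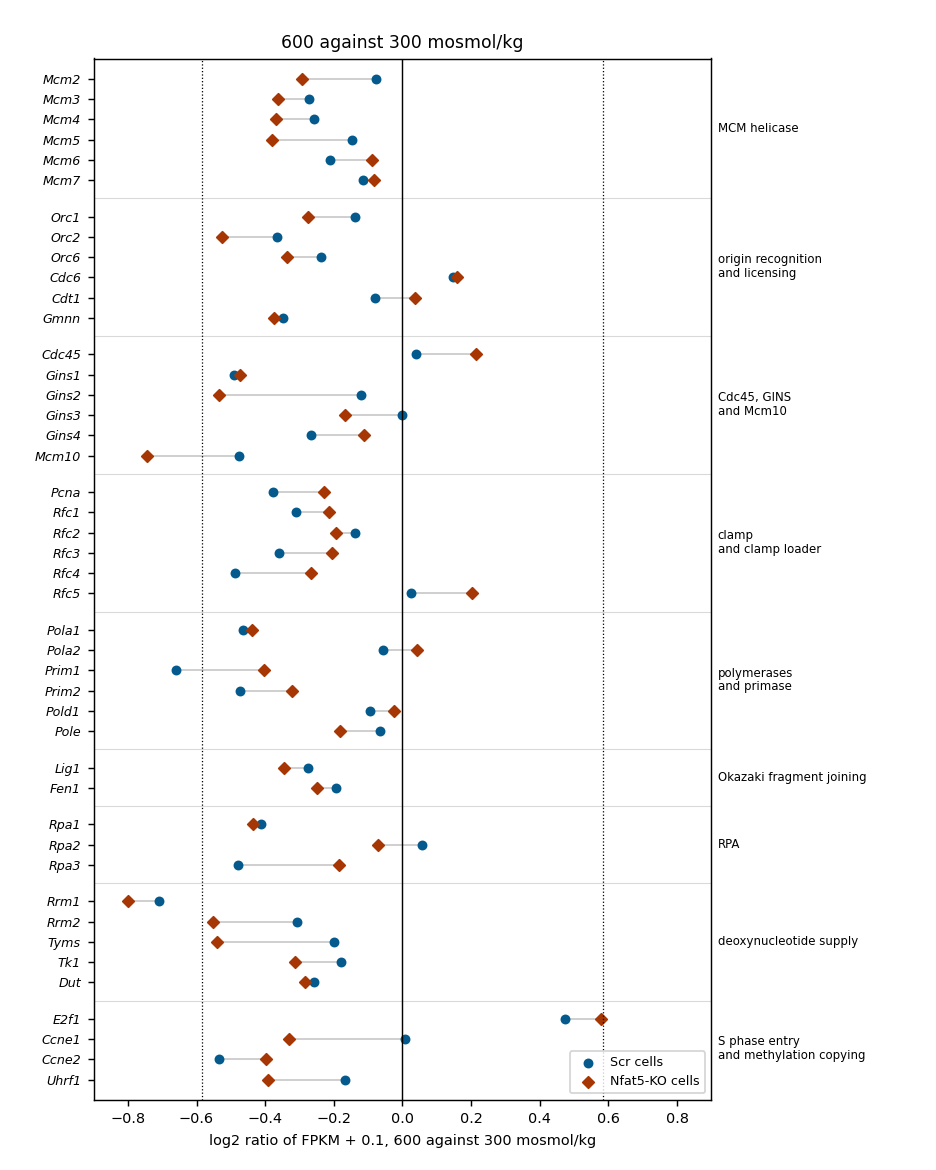
Log2 ratio of FPKM + 0.1 in hypertonic against isotonic medium for each member, in Scr cells (circles) and Nfat5-KO cells (diamonds), with dotted lines at 1.5-fold. In both genotypes 38 of 44 points lie left of 0 (30 and 26 with values rescaled to equal sums), and E2f1 lies farthest to the right.

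**Figure D3:**
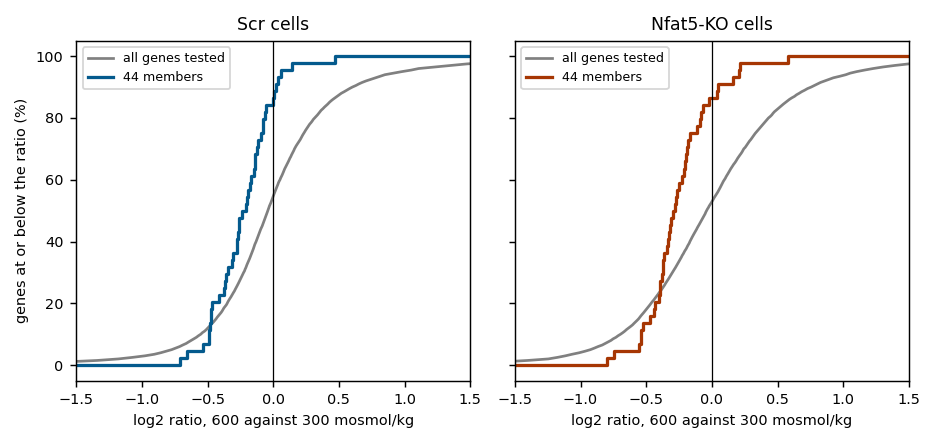
Cumulative share of genes (%) by log2 ratio in hypertonic against isotonic medium, for the 44 members (coloured steps) and for all genes tested (grey), in Scr and Nfat5-KO cells. The member curves lie left of the grey curves over most of their height, with medians of -0.22 and -0.29 against -0.041 and -0.040 (-0.095 and -0.047 against 0.088 and 0.20 with values rescaled), and they reach less far into both tails. For the 7147 genes that averaged 5 FPKM or more over the groups, the medians as deposited were -0.057 and -0.11.

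Across the 44 genes, the ratios in Scr and in Nfat5-KO cells, which share no library, had Pearson's r of 0.75 and Spearman's rho of 0.65, as a description of 44 genes that share libraries and regulation. Over the 13414 genes that reached 0.5 FPKM in any group, r was 0.59. Both ratios were below 0 in 36 members (40.1% of all genes) and above 0 in 4 (33.3%). The signs were opposite for Ccne1, Cdt1, Pola2 and Rpa2, where in each case 1 of the 2 ratios was no more than 0.056 from 0.

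All 6 genes of the MCM helicase lay below the median of all genes in both genotypes under hypertonicity. Mcm3 was at 89.6 FPKM in Scr_300, 74.1 in Scr_600, 83.5 in Nfat5-KO_300 and 64.8 in Nfat5-KO_600, and Mcm5 at 88.5, 79.9, 87.0 and 66.8 FPKM in the same order. Mcm4 was at 78.5, 65.7, 92.8 and 71.8 FPKM in that order. For these 3 subunits, each isotonic value was above the hypertonic value of the same genotype, with log2 ratios from -0.15 to -0.27 (Scr) and from -0.36 to -0.38 (Nfat5-KO). The other subunits had ratios nearer 0 in at least 1 genotype, with Mcm2 at -0.076 and -0.29, Mcm6 at -0.21 and -0.089, and Mcm7 at -0.12 and -0.082 (Scr first, Nfat5-KO second, as for all pairs of ratios below).

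Among the genes of origin recognition and licensing, 5 of 6 lay below the median of all genes in Scr cells and 4 of 6 in Nfat5-KO cells. Orc2, a subunit of the origin recognition complex, was at 18.5 FPKM in Scr_300, 14.3 in Scr_600, 21.02 in Nfat5-KO_300 and 14.6 in Nfat5-KO_600. Its log2 ratios were -0.37 and -0.53, and the other 2 subunits listed, Orc1 (-0.14 and -0.28) and Orc6 (-0.24 and -0.34), had ratios nearer 0 and below it in both. Of the Orc2 exon bases, 29.8% are shared with Nif3l1 on the opposite strand, and 8 of the 44 members share over 10% of their exon bases with another gene in this way. Cdc6, the ATPase that brings the helicase to the origin, was higher in hypertonic medium in both genotypes, at 12.9 FPKM in Scr_300, 14.3 in Scr_600, 12.5 in Nfat5-KO_300 and 13.9 in Nfat5-KO_600. Cdt1, its partner in loading, had ratios of -0.079 and 0.035, while Gmnn, which encodes the Cdt1 inhibitor geminin, was at 40.2 FPKM in Scr_300, 31.6 in Scr_600, 33.3 in Nfat5-KO_300 and 25.7 in Nfat5-KO_600. The ratio of Cdt1 to Gmnn was 0.578 in Scr_300, 0.696 in Scr_600, 0.551 in Nfat5-KO_300 and 0.733 in Nfat5-KO_600, higher in hypertonic medium in both genotypes. This ratio of genes within a group does not depend on the scale of the group.

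The genes that turn the loaded helicase into an active one varied widely. Mcm10, which helps to open the origin, was at 9.63 FPKM in Scr_300, 6.90 in Scr_600, 12.5 in Nfat5-KO_300 and 7.40 in Nfat5-KO_600 (chr2:4989714-5012791, minus strand, GRCm38). Its log2 ratios were -0.48 (Scr) and -0.74 (Nfat5-KO), the second lowest of all members in the latter. The GINS subunit Gins1 was at 22.4 FPKM in Scr_300, 15.9 in Scr_600, 15.8 in Nfat5-KO_300 and 11.4 in Nfat5-KO_600. Its ratios were nearly the same in both genotypes on the values as deposited (-0.49 and -0.47) but not with values rescaled (-0.36 and -0.23). Gins2 was at 5.43, 4.98, 5.12 and 3.50 FPKM in that order, with ratios of -0.12 and -0.54. Of the Gins2 exon bases, 67.3% are shared with Gse1 on the opposite strand, and it is not stated whether the authors counted by strand, so that the value is uncertain. Gins3 (-0.00066 and -0.17) and Gins4 (-0.27 and -0.11) had small ratios. Cdc45, the helicase activator, stood apart with 16.9 FPKM in Scr_300, 17.3 in Scr_600, 17.9 in Nfat5-KO_300 and 20.7 in Nfat5-KO_600, and was higher in hypertonic medium in both genotypes (0.039 and 0.21).

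The sliding clamp Pcna, which holds polymerases on DNA, was at 192 FPKM in Scr_300, 148 in Scr_600, 150.4 in Nfat5-KO_300 and 128 in Nfat5-KO_600. Its isotonic level was the highest of all members in Scr cells, and its ratios were -0.38 and -0.23. A processed copy, Pcna-ps2, is 99.2% identical over 781 bases and was listed at 2.45 to 4.05 FPKM, so that reads of the gene and its copy cannot be fully separated. Of the clamp loader subunits, Rfc4 was at 38.5 FPKM in Scr_300, 27.4 in Scr_600, 35.9 in Nfat5-KO_300 and 29.8 in Nfat5-KO_600, and Rfc3 at 20.3, 15.8, 19.8 and 17.2 FPKM in that order. Rfc1, the large subunit, had ratios of -0.31 and -0.21, and Rfc2 of -0.14 and -0.19. Rfc5 had ratios above 0 in both genotypes (0.024 and 0.20). In this role, 5 of 6 genes lay below the median of all genes in each genotype.

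All 6 polymerase and primase genes lay below the median of all genes in Scr cells and 4 of 6 in Nfat5-KO cells. Prim1, the catalytic subunit of primase (chr10:128015168-128030037, plus strand), was at 29.7 FPKM in Scr_300, 18.8 in Scr_600, 27.5 in Nfat5-KO_300 and 20.7 in Nfat5-KO_600, with log2 ratios of -0.66 and -0.40. Its partner Prim2 was at 9.46, 6.78, 8.64 and 6.89 FPKM in that order, with -0.47 and -0.32. Pola1, the catalytic subunit of polymerase alpha, was at 9.07 FPKM in Scr_300, 6.55 in Scr_600, 7.96 in Nfat5-KO_300 and 5.85 in Nfat5-KO_600. It was lower in hypertonic medium in both genotypes. The ratios were nearly the same on the values as deposited (-0.46 and -0.44) but not with values rescaled (-0.34 and -0.20). By contrast, Pola2, a second subunit of the same complex, had ratios of -0.057 and 0.043. The catalytic subunits of the polymerases that extend the strands also had ratios nearer 0, Pold1 with -0.095 and -0.025 and Pole with -0.066 and -0.18. Within the polymerase alpha and primase complex, the ratios of Pola1, Prim1 and Prim2 thus lay below that of Pola2 in both genotypes.

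Lig1, the ligase that joins Okazaki fragments, was at 42.7 FPKM in Scr_300, 35.3 in Scr_600, 35.6 in Nfat5-KO_300 and 28.1 in Nfat5-KO_600. Fen1, the nuclease that trims their ends, was at 5.88, 5.13, 6.26 and 5.24 FPKM in that order, and 78.8% of its exon bases are shared with the antisense gene Gm10143, so its low level is uncertain. Both lay below the median of all genes in both genotypes. The subunits of RPA, the protein that coats single-stranded DNA, did not share a pattern. Rpa1 was at 35.7 FPKM in Scr_300, 26.7 in Scr_600, 33.9 in Nfat5-KO_300 and 25.1 in Nfat5-KO_600 and had ratios of -0.41 and -0.43. Rpa2 had ratios of 0.056 and -0.070, and Rpa3 of -0.48 and -0.19.

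The genes that supply deoxynucleotides lay below the median of all genes in 5 of 5 cases in both genotypes, and among them was the lowest ratio of all members. Rrm1, the large subunit of ribonucleotide reductase (chr7:102441695-102469771, plus strand), was at 33.0 FPKM in Scr_300, 20.1 in Scr_600, 35.0 in Nfat5-KO_300 and 20.04 in Nfat5-KO_600. Both hypertonic values were near 20 FPKM and both isotonic values above 32 FPKM, with log2 ratios of -0.71 and -0.80. The small subunit Rrm2 was at 153 FPKM in Scr_300, 124 in Scr_600, 172 in Nfat5-KO_300 and 117 in Nfat5-KO_600, with ratios of -0.31 and -0.55. The ratio of Rrm2 to Rrm1 was 4.65 in Scr_300, 6.15 in Scr_600, 4.90 in Nfat5-KO_300 and 5.84 in Nfat5-KO_600, and so was higher in hypertonic medium in both genotypes on any scale. Tyms, thymidylate synthase, was at 17.4 FPKM in Scr_300, 15.2 in Scr_600, 18.5 in Nfat5-KO_300 and 12.7 in Nfat5-KO_600. Tk1, thymidine kinase of the salvage path, had ratios of -0.18 and -0.31, and Dut, which removes dUTP, of -0.26 and -0.28.

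E2f1, the activator of the G1/S genes, went the other way (chr2:154559407-154569892, minus strand). It was at 22.9 FPKM in Scr_300, 31.9 in Scr_600, 21.5 in Nfat5-KO_300 and 32.1 in Nfat5-KO_600. Both hypertonic values were near 32 FPKM and both isotonic values below 23 FPKM, with log2 ratios of 0.47 and 0.58, the highest of all members in both genotypes, and just short of 1.5-fold in Nfat5-KO cells. With values rescaled it was past 1.5-fold in both. Ccne2 (cyclin E2), which drives entry into S phase with its kinase, was at 12.9 FPKM in Scr_300, 8.84 in Scr_600, 13.8 in Nfat5-KO_300 and 10.5 in Nfat5-KO_600. Ccne1 (cyclin E1) had ratios of 0.0073 and -0.33. Uhrf1, which carries DNA methylation over to the new strand, was at 41.8 FPKM in Scr_300, 37.2 in Scr_600, 37.9 in Nfat5-KO_300 and 28.8 in Nfat5-KO_600.

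With the values as deposited, the medians of the members lay nearer 0 between genotypes than under hypertonicity. With values rescaled the medians were -0.095 (Scr) and -0.047 (Nfat5-KO) under hypertonicity, against 0.088 and 0.20 for all genes. Between genotypes they were then -0.074 in isotonic and 0.060 in hypertonic medium, against 0.014 and 0.11 for all genes. As deposited, the median of the members less that of all genes tested was -0.18 (Scr) and -0.25 (Nfat5-KO) under hypertonicity. Between genotypes it was -0.087 in isotonic and -0.048 in hypertonic medium. Between Nfat5-KO_300 and Scr_300, 30 of 44 members had a log2 ratio below 0 (50.2% of the 12704 genes tested), the median of the members was -0.089 and that of all genes was -0.0015. No member reached 1.5-fold in either direction (background 6.21% lower and 5.27% higher). At 1.2-fold, 8 members were lower (Mcm6, Cdt1, Gmnn, Gins1, Pcna, Pold1, Tk1 and Dut, against 19.6% of all genes), and 3 were higher (Mcm2, Mcm10 and Ccne1, against 19.7%). With values rescaled the counts were 7 and 3 (19.0% and 21.4% of all genes). Under hypertonicity, 25 of 44 members had a ratio of Nfat5-KO_600 against Scr_600 below 0 (52.2% of 13063 tested genes), or 19 of 44 (38.9% of all genes) with values rescaled. The median of the members was then -0.068, against -0.020 for all genes, and 0.060 against 0.11 with values rescaled. For the 7147 genes that averaged 5 FPKM or more, the median as deposited was -0.059 in hypertonic medium, with 57.1% below 0. In isotonic medium it was 0.0091, with 48.6% below 0. Again 0 members reached 1.5-fold in either direction (9.44% lower and 9.84% higher). At 1.2-fold 8 members were lower (Gmnn, Gins1, Gins2, Lig1, Rpa2, Tk1, Dut and Uhrf1, against 25.4%) and 0 were higher (24.3%). With values rescaled, 4 were lower (Gins1, Gins2, Tk1 and Dut, against 17.2%) and 6 were higher (Cdc45, Ccne1, Ccne2, Rfc1, Rpa3 and Prim1, against 34.7%).

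**Figure D4:**
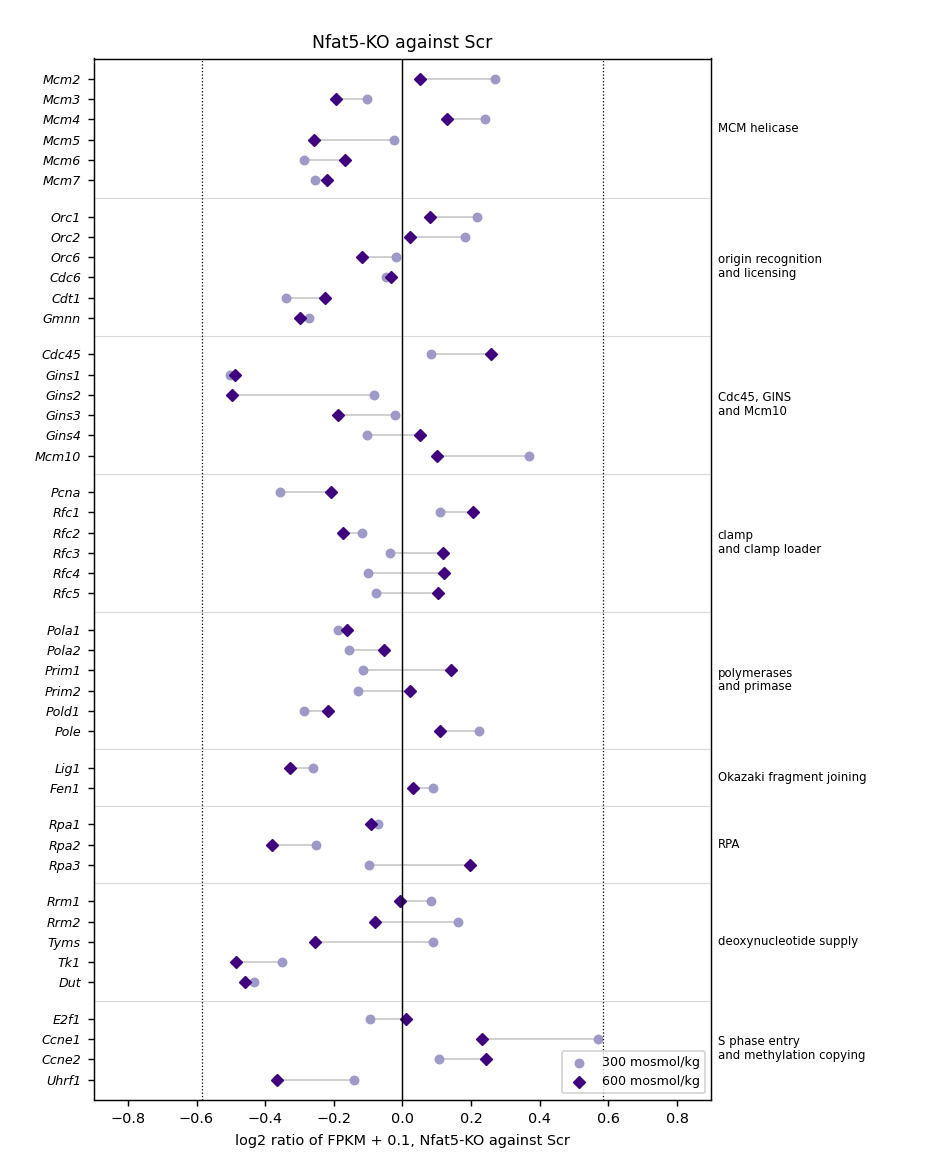
Log2 ratio of FPKM + 0.1 in Nfat5-KO against Scr cells for each member, in isotonic (light circles) and hypertonic medium (dark diamonds), with dotted lines at 1.5-fold. No point lies beyond the dotted lines (with values rescaled, Ccne1 in isotonic medium does), and 30 and 25 of 44 points lie left of 0 (30 and 19 with values rescaled).

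Among the members with the lowest ratios between genotypes, several were lower in both media. Gins1 had -0.50 in isotonic and -0.49 in hypertonic medium, Dut -0.43 and -0.46, and Tk1 -0.35 and -0.49. Tk1 was at 17.3 FPKM in Scr_300, 15.3 in Scr_600, 13.6 in Nfat5-KO_300 and 10.9 in Nfat5-KO_600, and Dut at 75.5, 63.1, 55.9 and 45.9 FPKM in that order, so that each knockout value was below the Scr value of the same medium for both. Gmnn (-0.27 and -0.30), Lig1 (-0.26 and -0.33) and Rpa2 (-0.25 and -0.38) were also lower in both. These directions held with values rescaled.

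Above the control in both media were Ccne1, Mcm4, Ccne2, Rfc1 and Cdc45 among others. Ccne1 was at 13.0 FPKM in Scr_300, 13.1 in Scr_600, 19.4 in Nfat5-KO_300 and 15.4 in Nfat5-KO_600, the highest ratio of all members in isotonic medium (0.57, and 0.23 in hypertonic medium). Mcm4 had 0.24 and 0.13, and Cdc45 0.083 and 0.26. Both lie on chromosome 16, and their windows of 5 Mb to each side overlap. The genes within 5 Mb also had median ratios of 0.31 and 0.24 (around Mcm4) and of 0.26 and 0.22 (around Cdc45). The part of this in the values of Mcm4 and Cdc45 was not tested. The MCM subunits differed in sign, since Mcm2 (0.27 and 0.050) and Mcm4 lay above 0 and Mcm3, Mcm5, Mcm6 and Mcm7 below it in both media, on either scale. In consequence the ratio of Mcm7 to Mcm2, which does not depend on scale, was 3.08 in Scr_300 and 3.00 in Scr_600, and 2.14 in Nfat5-KO_300 and 2.48 in Nfat5-KO_600. The ratio of Pole to Pold1 was 0.673 and 0.686 in Scr cells and 0.962 and 0.862 in Nfat5-KO cells. Genes within 5 Mb of Pole had median ratios between genotypes of 0.21 and 0.16, and those around Pold1 of -0.063 and -0.056. Their part in this ratio was not tested. The ratio of Pcna to Rfc1 was 5.55 and 5.30 in Scr cells and 4.02 and 3.98 in Nfat5-KO cells. For these 3 pairs, each value in Scr cells lay on 1 side of each value in Nfat5-KO cells, and the pairs were chosen after the values were seen. The other pairs calculated did not separate the genotypes in this way. They were Rrm2 to Rrm1, Cdt1 to Gmnn, Ccne1 to Ccne2, Prim1 to Prim2 and Cdc6 to Orc1.

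Across the 44 members, the ratios between genotypes in isotonic and in hypertonic medium, which share no library, had r of 0.69 and rho of 0.65 (r of 0.44 over 13414 genes), again as a description. They had the same sign in 33 members, below 0 in 22 (33.1% of all genes) and above 0 in 11 (30.8%). With the values as deposited, the 11 of opposite sign included Prim1, Rfc3, Rfc4, Rfc5 and Rpa3, which were lower in isotonic and higher in hypertonic medium.

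How far hypertonicity moved a member in each genotype was compared by the difference of its log2 ratios (Nfat5-KO minus Scr). It was below 0 for 24 of 44 members (52% of 13414 genes), or 14 of 44 (40.3% of all genes) with values rescaled, and the median of the members was -0.026, against -0.015 for all genes. For the 7147 genes that averaged 5 FPKM or more, the median as deposited was -0.065, below that of the members, and 58.8% were below 0. No interaction could be tested on 1 value per group. Set against the median of all genes, which no scale moves, 5 of 5 genes of deoxynucleotide supply had a lower difference, led by Tyms (-0.34) and Rrm2 (-0.24). By the same count, 5 of 6 clamp and clamp loader genes (Rfc4 0.22, Rfc5 0.18) and 5 of 6 polymerase and primase genes (Prim1 0.26, Prim2 0.15) had a higher one. The lowest difference of all members was that of Gins2 (-0.41) and the highest that of Rpa3 (0.29).

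The 13 members with an E2F match in the promoter window had median log2 ratios under hypertonicity of -0.15 (Scr) and -0.21 (Nfat5-KO). The 22 members with a window and no match had medians of -0.25 and -0.29. Between genotypes the medians were -0.14 in isotonic and -0.19 in hypertonic medium with a match, and -0.044 and 0.016 in members without it. The ranges of both sets overlapped in all 4 comparisons, and with values rescaled the medians with a match were -0.018, 0.036, -0.13 and -0.066 in the order given, and those without it -0.12, -0.047, -0.029 and 0.14.

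Other genes of replication and of the G1/S transition, 79 by a list set by function, were set beside the members, and 76 of them had values and passed the limit of 0.5 FPKM. In Scr cells 49 of the 76 lay below the median of all genes under hypertonicity and in Nfat5-KO cells 51. At least 1.5-fold lower were 4 (against 9.01% of all genes) and 11 (13.8%), which is near or below the share of all genes, and at least 1.5-fold higher were 0 (10.4%) and 5 (14.1%). With values rescaled, 3 and 6 were lower (6.49% and 7.12% of all genes) and 2 and 10 were higher (14.4% and 24.8%). All 6 other polymerase subunits lay below the median of all genes in both genotypes. Pold2, a subunit of polymerase delta, was at 36.2 FPKM in Scr_300, 27.7 in Scr_600, 32.2 in Nfat5-KO_300 and 17.6 in Nfat5-KO_600, with log2 ratios of -0.38 and -0.87. Pold4 (-0.55 and -0.66) and Pole2 (-0.39 and -0.63) had ratios of similar size.

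Among the nucleotide enzymes outside the 44, Dctd, which makes dUMP from dCMP, was at 9.95 FPKM in Scr_300, 8.18 in Scr_600, 11.5 in Nfat5-KO_300 and 4.44 in Nfat5-KO_600, with log2 ratios of -0.28 and -1.36. Rrm2b, the reductase subunit used outside S phase, was at 3.54, 2.12, 4.22 and 1.78 FPKM in that order, with -0.71 and -1.20. Both were lower in hypertonic medium in both genotypes on either scale.

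The regulators of the G1/S transition differed among themselves. Ccnd1 (cyclin D1) was at 99.3 FPKM in Scr_300, 52.1 in Scr_600, 124 in Nfat5-KO_300 and 59.4 in Nfat5-KO_600, the highest level of the named genes in this list, with log2 ratios of -0.93 and -1.06. Its kinase partner Cdk6 had -0.67 and -0.43, and the transcription factor Myc -0.36 and -0.71. Of the E2F and RB families, E2f4 had -0.18 and -0.65, the E2F partner Tfdp2 0.57 and 1.08, and the repressors Rb1 -0.072 and 0.87 and Rbl2 0.12 and 0.80. Rb1 was at 4.17 FPKM in Scr_300, 3.97 in Scr_600, 2.95 in Nfat5-KO_300 and 5.47 in Nfat5-KO_600, so that the knockout cells had the lowest and the highest of its 4 values. Of the CDK inhibitors, 6 of 6 lay above the median of all genes in Nfat5-KO cells (median ratio 0.33) and 4 of 6 in Scr cells (median ratio 0.064). Cdkn2b, which inhibits the cyclin D kinases, was at 8.97 FPKM in Scr_300, 13.0 in Scr_600, 5.69 in Nfat5-KO_300 and 10.1 in Nfat5-KO_600. The other genes named by the same limit were Orc5 (-0.46 and -0.82), Ticrr (0.20 and 0.68) and Dscc1 (-0.55 and -0.62).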

How the data were processed

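The authors mapped paired-end reads of poly(A) RNA libraries to the mouse genome GRCm38 (mm10) with HISAT2 and counted reads per gene with HTSeq. The values they deposited are in FPKM, 1 value per gene and group. The way in which libraries became 1 group value, the annotation release and the strand setting are not given in the sources used here. Of 54839 rows, 2436 without a value, 311 exact duplicates and 37 symbols with several rows were left out. FPKM is relative to all mapped fragments, so a change in a few abundant genes can shift all others.

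Log2 ratios of FPKM + 0.1, which understate changes of low genes, were taken for 4 comparisons wherever 1 of the 2 groups reached 0.5 FPKM. A fold of 1.5 was counted for members and for all genes. No test was possible. The steps were tested on simulated data. Gene positions and exon overlaps come from GENCODE M21 (GRCm38), and pseudogene copies from minimap2 2.31-r1302, at 90% identity or more over at least 200 bases. Promoter windows come from RefSeq (GRCm38.p6). The 44 members, the lists of other genes and the markers were chosen with earlier results of these data known. All members are named, and of the other genes those at least 1.5-fold different under hypertonicity with at least 1 FPKM in a group, except 1 gene that is not reported here. Alternatives were pseudocounts of 1 and 0.01 FPKM, no filter, a limit of 1 FPKM on the mean, median-of-ratios factors and a 2-fold limit. Those added after the data were seen were a rescaling to equal sums, a limit of 5 FPKM on the mean, a 1.2-fold limit, both on deposited and on rescaled values, and the members left when 8 that share over 10% of their exon bases were removed. Python 3.11.15, numpy 2.4.6 and pandas 2.3.3 were used.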

Additional observations from a re-analysis of the deposited data

How the results depend on the processing

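No paired analysis was possible because the deposited values hold 1 value per group, and for the same reason no library could be left out. Pseudocounts of 1 and 0.01 FPKM, no filter, means of at least 1 and 5 FPKM and median-of-ratios factors left each of the 22 summary values within its limit (0.1 for a median, 1.5-fold for a count). Those values are of the members. With the limit of 5 FPKM, the median of all genes under hypertonicity moved to -0.057 (Scr) and -0.11 (Nfat5-KO). Without the 8 members that share over 10% of their exon bases, 31 of 36 members were lower under hypertonicity in each genotype. With a 2-fold limit, 0 members were lower in either genotype under hypertonicity. With a 1.2-fold limit, chosen after the data were seen, 19 members were lower and 1 higher under hypertonicity in the Scr comparison, 25 and 1 in the Nfat5-KO comparison, 8 and 3 between genotypes in isotonic medium, and 8 were lower in hypertonic medium. On rescaled values the same limit gave 10 lower and 2 higher, 6 and 6, 7 and 3, and 4 and 6 in the order of these comparisons. Rescaling to equal sums, also chosen afterwards, moved the medians under hypertonicity to -0.095 (Scr) and -0.047 (Nfat5-KO). It turned the median between genotypes in hypertonic medium to 0.060 (0.11 for all genes) and the median difference (Nfat5-KO minus Scr) to 0.087 (0.096 for all genes). Then 14 members had a lower ratio in Nfat5-KO cells, against 40.3% of all genes. After rescaling, 0 members were at least 1.5-fold lower under hypertonicity in either genotype (6.49% and 7.12% of all genes). At that limit 1, E2f1, was higher in each (14.4% and 24.8%), while 1, Ccne1, was higher between genotypes in isotonic medium (6.05%). Apart from the effect of the added 0.1, this by construction adds 1 constant to all ratios of a comparison. The depth per library is unknown, so the counting error of these values could not be given.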

Other observations

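The 20 genes of mitosis listed by function, which act after S phase, also lay mostly below the median of all genes under hypertonicity, 17 of 20 in Scr cells and 14 of 20 in Nfat5-KO cells. Their median log2 ratios were -0.29 and -0.26, against -0.22 and -0.29 for the 44 replication genes. Between genotypes their medians were -0.13 in isotonic and -0.12 in hypertonic medium. With values rescaled to equal sums, the medians under hypertonicity were -0.16 and -0.022, and those between genotypes -0.11 and 0.0092.

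The neighbours of some members were themselves raised between genotypes. Genes within 5 Mb, where at least 20 passed the limit of 0.5 FPKM, were taken for 43 of the 44 members. On chromosome 16 the median log2 ratio of the neighbours in Nfat5-KO against Scr cells was 0.31 in isotonic and 0.24 in hypertonic medium around Mcm4. It was 0.26 and 0.22 around Cdc45, and 0.29 and 0.24 around Rfc4, whose windows overlap each other and that of Mcm4. These values on chromosome 16 are thus not independent of each other. Around Mcm10 the median was 0.29 and 0.12, and around Mcm2 0.21 and 0.20. Mcm2, Mcm4, Mcm10 and Cdc45 were themselves higher in the knockout cells in both media, as was Pole (0.22 and 0.11, neighbours at 0.21 and 0.16). Other members with raised neighbours were not higher in both. Mcm7 had ratios of -0.25 and -0.22 with neighbours at 0.18 and 0.14, and Rfc4 had ratios of -0.10 and 0.12. Rfc3 had -0.035 and 0.12 with neighbours at 0.17 and 0.24, and Rpa3 -0.098 and 0.20 with neighbours at 0.15 and 0.21. Over the 43 members, the ratios of a member and its neighbours had r of 0.32 in isotonic and 0.33 in hypertonic medium, as a description. The part of the neighbours in these values was not tested. As deposited, the other members higher in both media were Ccne1, Ccne2, Rfc1, Orc1, Orc2 and Fen1, and their neighbours were not raised in both. The neighbours had -0.014 and -0.20 around Ccne1, -0.24 and -0.17 around Ccne2, and -0.10 and -0.0073 around Rfc1. They had -0.059 and -0.090 around Orc1, -0.023 and 0.049 around Orc2, and -0.063 and -0.091 around Fen1. Under hypertonicity, 37 of 43 members in Scr cells and 36 of 43 in Nfat5-KO cells lay below the median of their own neighbours.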
